A study of Mus musculus with 12 samples.

Results

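Igfbp1 and 4 genes that set the strength of insulin signalling, Pik3r1, Gsk3b, Enpp1 and Socs3, were taken by name from the spot table of a mouse liver array. They are 5 of the 330 genes on the array, each held 1 spot, and each was listed under its current symbol. The array was used to measure liver RNA of 12 male ApoEshl mice, a line with a spontaneous defect of Apoe that both groups carried. Per the labels they were 7 to 8 weeks old and were fed for 12 weeks. High-fat diet alone was given to 6 mice (HFD), and the same diet with 5% fucoidan, a brown seaweed polysaccharide rich in sulphate, to 6 (fucoidan). The 12 arrays hold no mice of the normal diet or the 1% fucoidan diet. Each mouse was hybridised alone in 1 colour with Alexa Fluor555, and the number of arrays limits the precision.

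Insulin binds its receptor, whose kinase marks substrate proteins that recruit PI3-kinase. PI3-kinase activates Akt, which phosphorylates and restrains the kinase GSK3 and the transcription factor FOXO1. In liver, FOXO1 drives genes that insulin therefore represses, and Igfbp1, a secreted protein that binds insulin-like growth factors, is a textbook example. Pik3r1 encodes p85-alpha, the regulatory subunit of PI3-kinase, and Gsk3b encodes a kinase that inhibits glycogen synthase. Enpp1 encodes a membrane enzyme that can bind the insulin receptor and inhibit it, and Socs3 encodes a cytokine-induced inhibitor of cytokine and insulin signalling. An array reads RNA amounts, not protein or phosphorylation, and in a tissue sample fewer cells of a type and less RNA per cell cannot be told apart.

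The RefSeq promoter table (GRCm38.p6) held windows for 5 of 5 members, 6 in all because Pik3r1 has 2. They were searched on both strands for CAAAACA, the core of the insulin response sequence through which FOXO1 acts on Igfbp1, and for TTCNNNGAA, a STAT motif through which cytokines act on Socs3. The windows of those 2 genes, the only 2 of the 5 past the threshold of the group test, are shown 5′ to 3′ with the motif in capitals. Igfbp1 lies on the plus strand at chr11:7197537-7197836 and Socs3 on the minus strand at chr11:117969317-117969616.
Igfbp1: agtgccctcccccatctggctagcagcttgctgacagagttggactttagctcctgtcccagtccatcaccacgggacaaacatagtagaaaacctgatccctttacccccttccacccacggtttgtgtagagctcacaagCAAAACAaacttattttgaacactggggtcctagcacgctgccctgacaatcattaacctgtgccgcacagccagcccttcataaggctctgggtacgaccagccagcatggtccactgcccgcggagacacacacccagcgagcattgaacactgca
Socs3: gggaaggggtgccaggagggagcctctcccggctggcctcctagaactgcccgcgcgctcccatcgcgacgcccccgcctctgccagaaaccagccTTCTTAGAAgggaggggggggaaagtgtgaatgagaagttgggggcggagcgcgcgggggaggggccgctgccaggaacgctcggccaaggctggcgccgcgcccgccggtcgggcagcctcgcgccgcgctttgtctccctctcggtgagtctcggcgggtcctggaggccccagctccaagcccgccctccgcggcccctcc
The Igfbp1 window holds CAAAACA 1 time, with its first base 108 bases before the transcript start. The Socs3 window holds TTCTTAGAA, a form of TTCNNNGAA, 154 bases before the start. Each of these windows holds 1 of the 2 motifs, and the other 4 windows hold neither. Among all 32851 windows of the table, 6.28% hold CAAAACA and 8.30% hold TTCNNNGAA, so a match describes these letters and does not by itself show a site.

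The spots differed in how sound their listed values are. For 41 of 354 gene spots the listed difference departed by more than 0.5 from foreground minus local background, on 1 array or more, and Socs3 is on 1 of these. Its listed difference was off on 12 of 12 arrays, from −77 to 71 intensity units, with a median size of 43 and at most 12.8% of the listed value. The listed differences of Igfbp1, Pik3r1, Enpp1 and Gsk3b were exact on all 12 arrays. The Igfbp1 spot had the same local background on all 12 arrays as the spot of Hsd11b1, which regenerates active glucocorticoid, although their foregrounds were equal on 0 arrays. The listed difference of that Hsd11b1 spot was off on 12 arrays. The backgrounds of Socs3, Pik3r1, Gsk3b and Enpp1 matched another spot's on at most 5, 4, 4 and 3 arrays. The slide carried the HFD mice in its blocks 1 to 12 and the fucoidan mice in blocks 13 to 24, so position and group cannot be told apart.

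**Figure D1:**
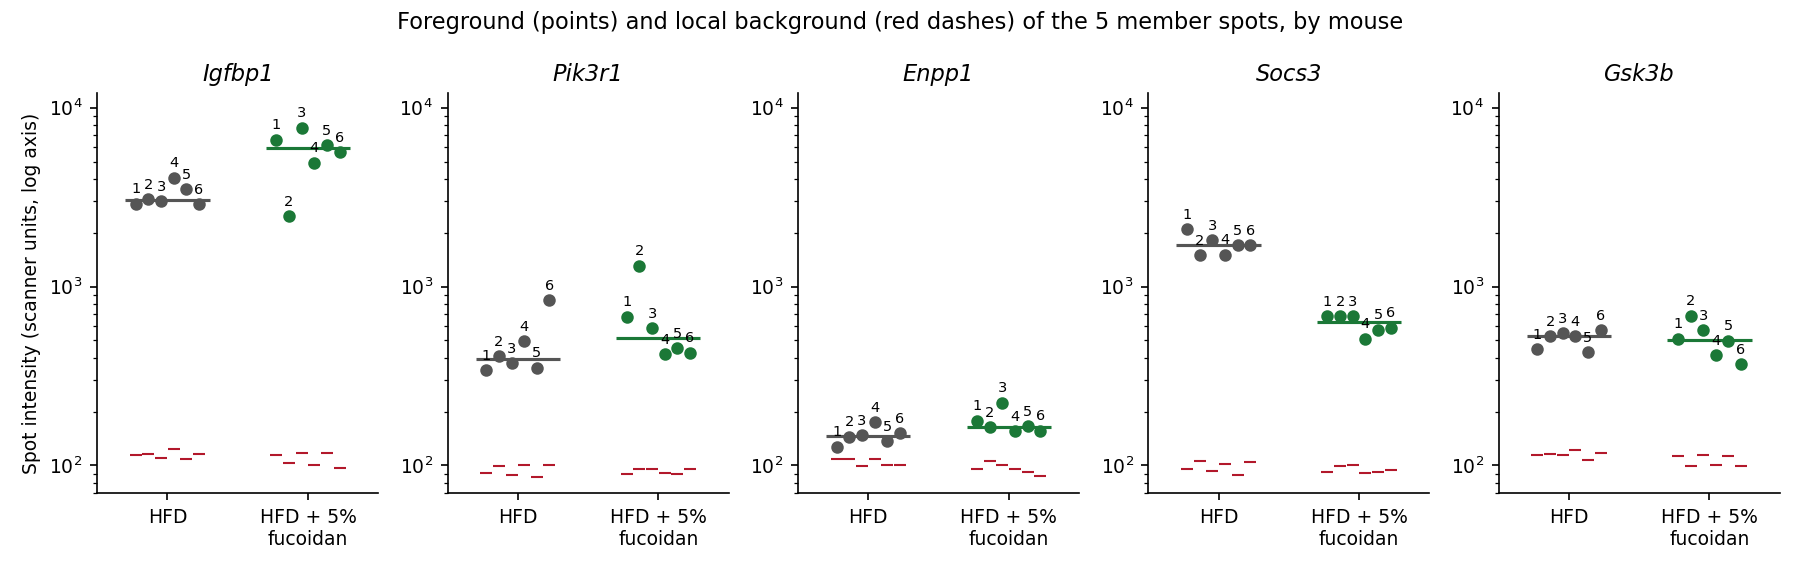
Foreground of each member spot (points, scanner units on a log axis) and its local background (red dashes) by group, with replicate numbers and the group median as a line. Socs3 was 1500 to 2096 in HFD mice and 512 to 685 in fucoidan mice, Igfbp1 was higher in 5 of 6 fucoidan mice than in any HFD mouse, and Enpp1 lay close to its background.

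Igfbp1, the output that insulin represses, was higher in the fucoidan group. Its foreground was 2898, 3089, 2998, 4061, 3510 and 2879 in HFD replicates 1 to 6. In fucoidan replicates 1 to 6 it was 6622, 2479, 7706, 4924, 6191 and 5652. The groups overlapped through 1 mouse, fucoidan replicate 2, which was below every HFD mouse, while the other 5 were above every HFD mouse. On the normalised log2 scale the mean rose from 11.68 ± 0.11 to 12.49 ± 0.50 (SD, n = 6 each). The difference of 0.80 (SE 0.19, 95% interval 0.38 to 1.23), a fold of 1.75, passed the limma test across 181 genes (adjusted p = 0.0246). In that test 15 of the 181 genes passed, or 8.29%, with 3.87% higher and 4.42% lower, and 2 of the 5 members were among them, 1 in each direction. At an unadjusted p under 0.05 the share was 22.1%. The SD among fucoidan mice was 4.38 times that among HFD mice, with fucoidan replicate 2 at 11.48 and the other 5 at 12.66 to 12.80. Quantile normalisation gave 4 of the 6 fucoidan mice the same Igfbp1 value, 12.66, although their foregrounds ran from 4924 to 6622.

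The Igfbp1 call depended on the scaling and on the test. The difference was 0.72 with arrays scaled to their median (limma adjusted p = 0.106), 0.51 scaled to reference genes (adjusted p = 0.247) and 0.59 without the spots of inconsistent difference (adjusted p = 0.279), and the exact permutation test gave an adjusted p of 0.105. Leaving out HFD replicate 3, 5 or 6 or fucoidan replicate 3, 4 or 5 moved the limma adjusted p to between 0.0501 and 0.0568, whereas without fucoidan replicate 2 the difference was 0.98 with an adjusted p of 5.68e-06. Scaling to the reference genes moved the median difference of all tested genes from 0.05 to −0.12, and that shift applies to every difference given on that scale. Before that scaling, with all gene spots kept, all 8 reference genes were themselves higher with fucoidan, with a median difference of 0.19. Without the spots of inconsistent difference, Actb, Rplp0 and Eef1a1 were lower, at −0.19, −0.04 and −0.03, and the other reference genes higher. The spot partner Hsd11b1 differed in the direction opposite to Igfbp1, by −0.91 (limma adjusted p = 0.0317).

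Pik3r1, the regulatory subunit of PI3-kinase, did not pass the test. Its foreground was 342, 409, 374, 494, 351 and 840 in HFD replicates 1 to 6 and 680, 1309, 584, 420, 452 and 427 in fucoidan replicates 1 to 6. The groups overlapped widely, and 1 mouse in each stood high, HFD replicate 6 and fucoidan replicate 2. The normalised level was 8.92 ± 0.33 against 9.19 ± 0.58, a difference of 0.27 (SE 0.25, 95% interval −0.28 to 0.82; limma adjusted p = 0.557). Without fucoidan replicate 2 the difference was 0.06.

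Gsk3b, the kinase that Akt restrains, also did not pass. Its foreground was 448, 526, 547, 526, 428 and 571 in HFD mice and 512, 688, 571, 414, 498 and 367 in fucoidan mice. Fucoidan replicate 2 was again the highest of all 12 mice and fucoidan replicate 6 the lowest, so the fucoidan values enclosed the HFD values. The normalised level was 9.01 ± 0.12 against 8.91 ± 0.24, a difference of −0.10 (SE 0.11, 95% interval −0.34 to 0.14; limma adjusted p = 0.610).

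Enpp1, which can bind and inhibit the insulin receptor, was dim. Its foreground was 127, 145, 148, 175, 137 and 151 in HFD mice and 178, 163, 224, 155, 166 and 156 in fucoidan mice. These values were 0.976 to 1.61 times the detection limit, and HFD replicate 1 was below it. The local background was itself lower in the fucoidan group, 87 to 106 against 99 to 109, so foreground minus background was 57 to 124 in the fucoidan group and 18 to 67 in the HFD group. The normalised level was 7.27 ± 0.13 against 7.52 ± 0.14, with 6 of 6 fucoidan mice above the HFD mean. The difference of 0.25 (SE 0.08, 95% interval 0.07 to 0.44) did not pass after adjustment (limma adjusted p = 0.0909). It was 0.39 on the listed differences (adjusted p = 0.0452) and 0.05 with arrays scaled to reference genes, so its size rests on the background and the scaling.

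Socs3, the inhibitor of cytokine and insulin signalling, was lower in every fucoidan mouse. Its foreground was 2096, 1500, 1810, 1503, 1709 and 1704 in HFD mice and 681, 685, 681, 512, 575 and 590 in fucoidan mice. The groups did not overlap, which was so for 6.08% of the 181 genes, 4.97% lower and 1.1% higher with fucoidan. The listed differences gave the same separation, 1453 to 1983 against 483 to 597. The normalised level fell by 1.54 on the log2 scale (SE 0.14, 95% interval −1.84 to −1.24), from 10.82 ± 0.30 to 9.28 ± 0.19, and HFD was 2.91-fold above fucoidan. This was the smallest p of the 181 genes (limma adjusted p = 1.85e-05), and the exact permutation test gave an adjusted p of 0.0356. Genes on spots of inconsistent difference were called in 29.4% of cases (10 of 34) and the others in 3.4% (5 of 147), and Socs3 is 1 of those 10. Without those spots Socs3 has no value, and limma called 0 of 147 genes (0.0%), with 15 (10.2%) at an unadjusted p under 0.05.

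**Figure D2:**
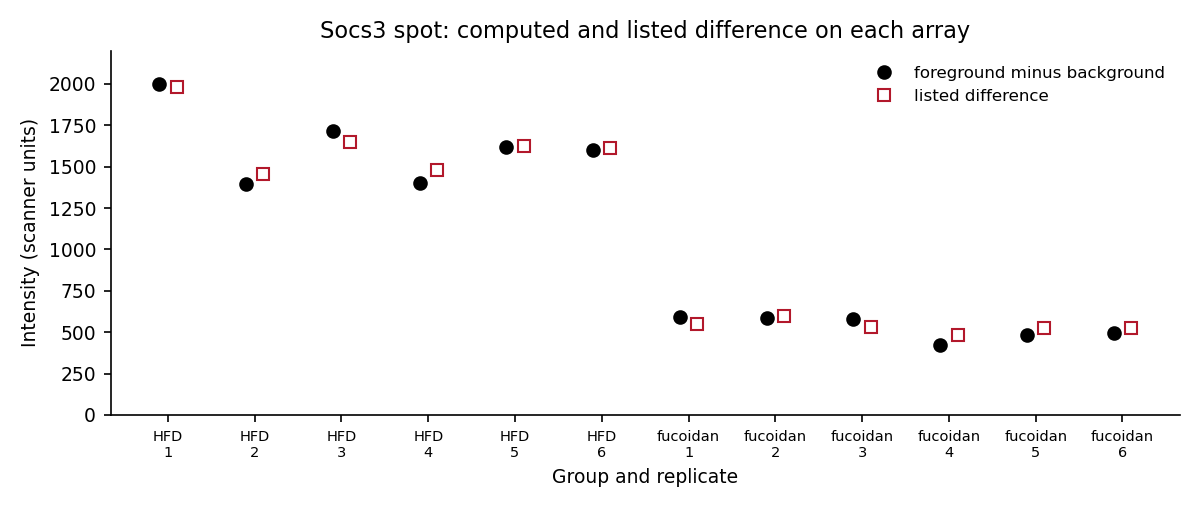
Socs3 spot intensity (scanner units) on each array as foreground minus background (filled circles) and as the difference listed in the table (open squares). The 2 values differ on all 12 arrays by up to 77 units, while HFD lies at 1394 to 2000 and fucoidan at 421 to 589 by the computed values.

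**Figure D3:**
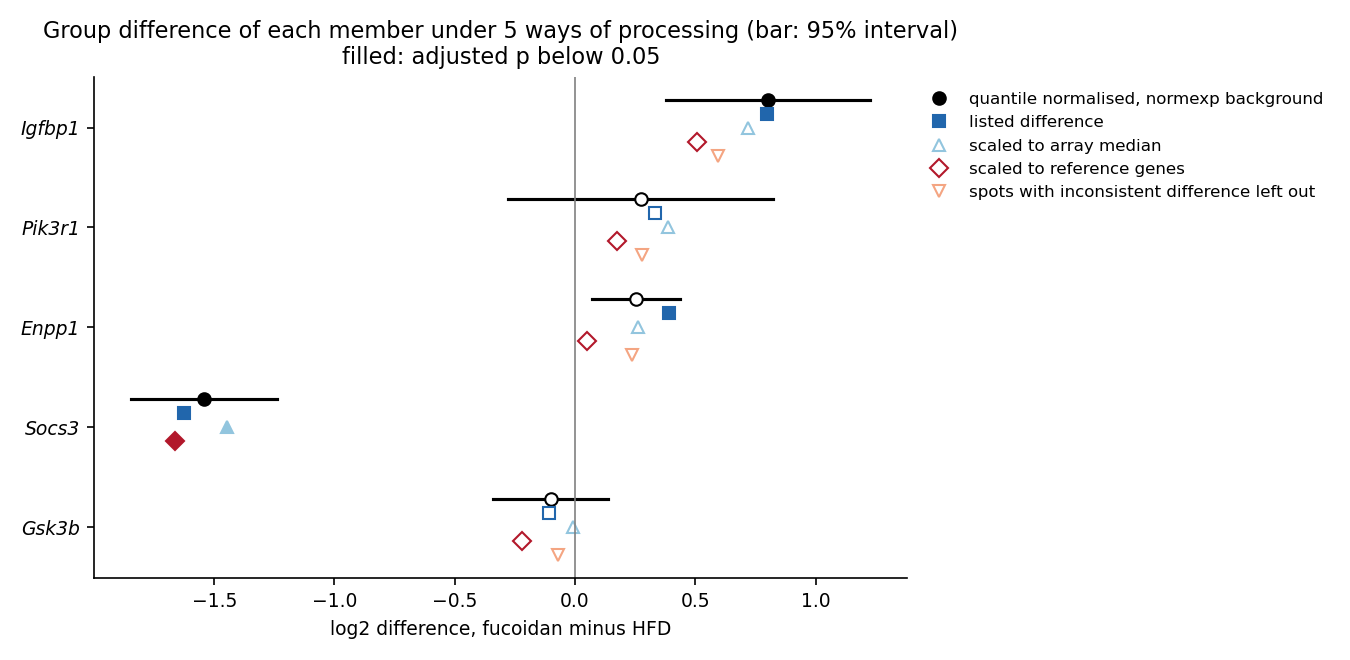
Log2 difference of fucoidan minus HFD for each member under 5 ways of processing, with the 95% interval for the normexp and quantile values (bars) and filled symbols for an adjusted p under the threshold of 0.05. Socs3 stays near −1.54 wherever it has a value, Igfbp1 runs from 0.51 to 0.80 with a changing call, and Enpp1 from 0.05 to 0.39.

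Igfbp1 was then set against each modulator mouse by mouse, within each group and over all 12 mice after each group was centred on its mean. Of these 12 relations, 0 passed after adjustment over the family (exact permutation of pairings within groups, two-sided). Groups were not pooled without centring, since they separate on Socs3 and nearly so on Igfbp1. No technical batch is recorded apart from slide position, which follows the groups.

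Of the 4 modulators Pik3r1 gave the r farthest from 0, and it was negative. Over 12 centred mice Pearson's r was −0.83 (exact permutation p = 0.0144, adjusted 0.1) and Spearman's rho was −0.58 (exact p = 0.0799, adjusted 0.240). Within the fucoidan group r was −0.92 (exact p = 0.0333, adjusted 0.1) and rho −0.85 (exact p = 0.0667), and within the HFD group r was −0.47 (exact p = 0.328) and rho −0.04 (exact p = 0.944). The relation rests mainly on fucoidan replicate 2. Without that mouse r was −0.48, and without HFD replicate 6 alone it was −0.88. Without both, which lie farthest from the Igfbp1 median, r over the other 10 was −0.08. These 2 mice had the lowest Igfbp1 levels of all 12, 11.48 and 11.54, and the highest Pik3r1 levels, 10.25 and 9.59. A negative r of this size was not particular to the modulators. Over the 12 centred mice Igfbp1 gave r −0.82 with Mif and −0.80 with the reference gene Actb. With Actb it was −0.96 in fucoidan mice and −0.31 in HFD mice.

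Gsk3b gave a similar picture. Over 12 centred mice r was −0.80 (exact permutation p = 0.0240, adjusted 0.1) and rho was −0.58 (exact p = 0.0463, adjusted 0.240). Within the fucoidan group r was −0.89 (exact p = 0.0333) and rho −0.85 (exact p = 0.0667), and within the HFD group r was −0.22 (exact p = 0.681) and rho −0.58 (exact p = 0.233). Without the same 2 mice r was −0.34, without fucoidan replicate 2 alone −0.37 and without HFD replicate 6 alone −0.80, so this relation rests on fucoidan replicate 2. Fucoidan replicate 2 had the highest Gsk3b level, 9.33, of the 12 mice.

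On the normalised values neither inhibitor gave a relation with Igfbp1 past the threshold. For Enpp1 the centred r was 0.43 (exact permutation p = 0.152, adjusted 0.305) and rho 0.18 (exact p = 0.574), with r −0.49 in the HFD group (exact p = 0.358) and 0.71 in the fucoidan group (exact p = 0.1). Their signs were opposite, and without fucoidan replicate 2 and HFD replicate 6 the centred r was −0.07. Without fucoidan replicate 2 alone, on the quantile-normalised values, the centred r of Enpp1 turned from 0.43 to −0.25. With arrays scaled to their median and all 12 mice it was 0.77 and passed (exact permutation, adjusted p = 0.00706). For Socs3 the centred r was 0.05 (exact permutation p = 0.874, adjusted 0.874) and rho 0.24 (exact p = 0.431). It was 0.59 in the HFD group (exact p = 0.222) and −0.13 in the fucoidan group (exact p = 0.8), and 0.21 without the same 2 mice. So although Igfbp1 was higher and Socs3 lower between the groups, mice of a group with less Socs3 were not shown to have more Igfbp1. Within the fucoidan group no r could be had without the 2 farthest mice, because the other 4 share 1 Igfbp1 value, and with these ties 0.0333 is the smallest p the exact test allows there. Within the HFD group, r over the 4 mice left was 0.34 for Pik3r1, −0.90 for Gsk3b, 0.06 for Enpp1 and −0.16 for Socs3.

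**Figure D4:**
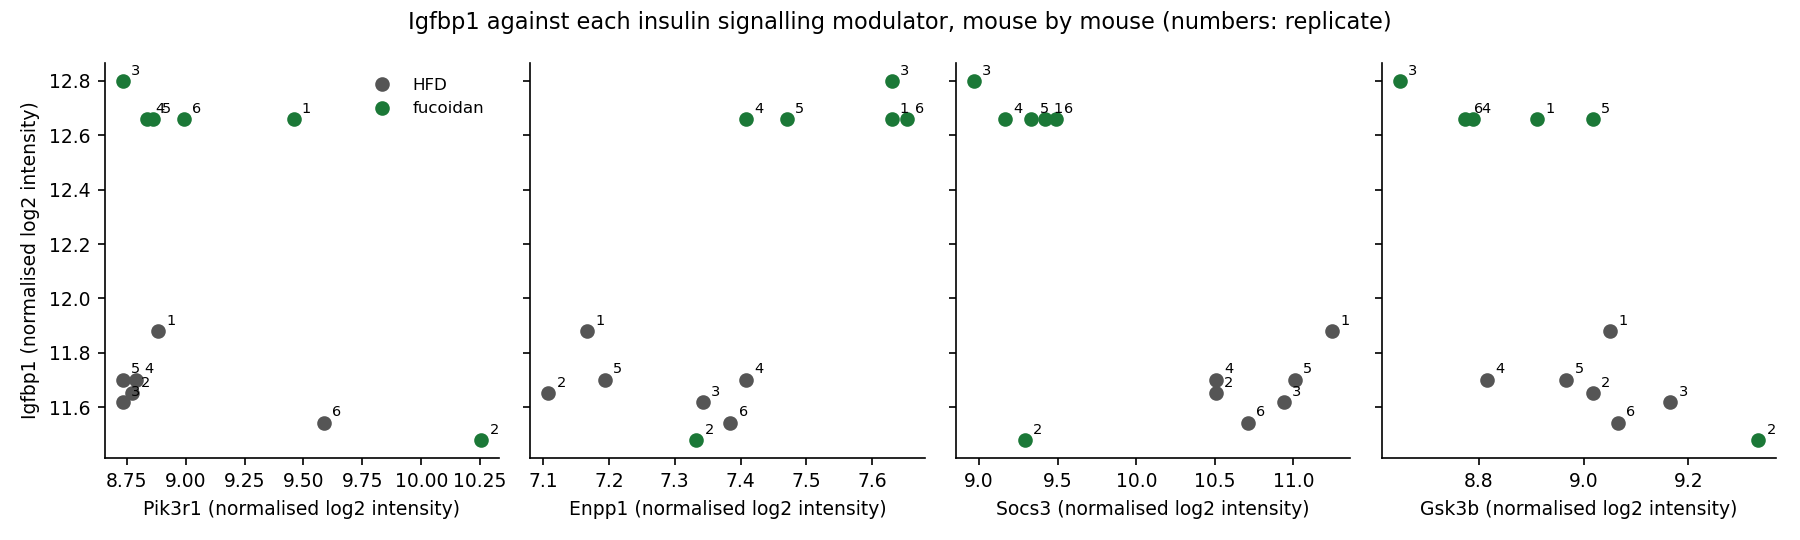
Normalised log2 intensity of Igfbp1 (vertical) against each modulator (horizontal) in the 12 mice, with replicate numbers. Fucoidan replicate 2 stands alone at low Igfbp1 and at the highest Pik3r1 and Gsk3b, and 4 fucoidan mice share the Igfbp1 value 12.66.

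For each member the 3 genes of most similar pattern were taken from the 147 tested on spots of exact listed difference, by Pearson's r of group-centred log2 values over the 12 arrays, as a description. Igfbp1 was closest to Klf15, a transcription factor of fasting metabolism (r 0.78), Lipc, hepatic lipase (0.76), and Gys2, liver glycogen synthase (0.75). Pik3r1 was closest to Pkm, the M form of pyruvate kinase (0.84), Hmox1, haem oxygenase (0.84), and Rab4a, a GTPase of endosome recycling (0.79). Gsk3b was closest to the transcription factor Cebpa (0.74), to Pik3r1 itself (0.72) and to its own paralogue Gsk3a (0.66). Enpp1 followed Pi4k2b, a lipid kinase (0.73), the ribosomal protein gene Rps18 (0.64) and Dld, a dehydrogenase subunit (0.63). Socs3 followed Ptpn1, the phosphatase that removes phosphate from the insulin receptor (0.90), then the transcription factor Cebpb (0.55) and Akt2 (0.54). For Cebpb r was 0.69 in HFD mice and 0.08 in fucoidan mice, and for Akt2 it was 0.70 and 0.07. The Socs3 and Ptpn1 values agreed in both groups, with r 0.93 in HFD mice and 0.85 in fucoidan mice. Ptpn1 was dim, with a foreground of 137 to 186 in HFD mice and 132 to 172 in fucoidan mice. Without normalisation the centred r of Socs3 and Ptpn1 was 0.63, or 0.49 with Socs3 taken from its listed differences. With arrays scaled to their median these were 0.78 and 0.71. The points of each r share an array and its normalisation.

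Few of the remaining insulin pathway genes on the array passed the test. Of the list of receptor, substrates and adaptors, 6 were on the array and 2 were tested, Grb2 (−0.09, limma adjusted p = 0.594) and Crk (0.14, adjusted p = 0.364). The receptor gene Insr and the substrate genes Irs1, Irs2 and Irs3 were not above the detection limit on enough arrays. Of PI3-kinase, Akt and the kinases downstream, 7 of 11 were tested, 0 passed and the median difference was 0.03, beside 0.05 over all genes tested, and −0.16 with arrays scaled to reference genes. Of the Akt genes, the difference was 0.11 for Akt1 (adjusted p = 0.417) and −0.14 for Akt2 (adjusted p = 0.336). Pik3cb, Pik3cg and Pdpk1 were among those not tested.

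Of 11 inhibitors of insulin signalling on the array, 6 were tested, and Socs3 was the 1 that passed, with a list median of −0.14, which was −0.03 with arrays scaled to their median (3 higher, 3 lower) and −0.25 scaled to reference genes. The phosphatase genes Ptpn1 and Ptprf differed by −0.15 and −0.20 (limma adjusted p = 0.460 and 0.355). Mapk8, the stress kinase JNK1 that phosphorylates insulin receptor substrates, differed by 0.71 (SE 0.29, adjusted p = 0.155) on a spot that shares its background with another. All 7 genes of the Ras and MAP kinase branch were tested and 1 passed, Jun, a subunit of AP-1, with 1.54 (SE 0.22, adjusted p = 7.65e-04) on a spot of inconsistent difference. All 7 of these were higher with fucoidan, but 1 of 7 was higher with arrays scaled to reference genes.

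Among 10 insulin-repressed hepatic genes on the array 7 were tested, and Igfbp1 was the 1 that passed. Of the other 6, 3 were higher and 3 lower. G6pc, the glucose-6-phosphatase catalytic subunit, and Pdk4, the kinase that shuts pyruvate dehydrogenase, differed by −0.49 (limma adjusted p = 0.0835) and −1.21 (SE 0.63, adjusted p = 0.304), both on spots of inconsistent difference. Mttp, which loads lipid onto lipoproteins, differed by 0.22 (adjusted p = 0.103), Apoc3 by 0.18 (adjusted p = 0.317) and Foxo1 by −0.17 (adjusted p = 0.400). Insig2, which retains SREBP in the endoplasmic reticulum, differed by 0.29 (adjusted p = 0.647), and fucoidan replicate 2 had its highest level, 11.03. The list's median was 0.18, or 0.11 with arrays scaled to their median and −0.10 with arrays scaled to reference genes.

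All 7 insulin-induced hepatic genes on the array were tested and 0 passed, with 1 higher and 6 lower under each of the 4 scalings and a median of −0.12, or −0.04 with arrays scaled to their median and −0.25 scaled to reference genes. Acly and Srebf1 differed by −1.05 (SE 0.37, limma adjusted p = 0.099) and −0.60 (adjusted p = 0.0825) on spots of inconsistent difference. Of the genes around the insulin-like growth factors, Igfbp2 differed by −0.08 (SE 0.34, adjusted p = 0.891) and Igfbp5 was not above the limit on enough arrays. Of the cytokine route to Socs3, Stat3 differed by −0.31 (adjusted p = 0.372), the acute-phase gene Crp by −0.09 (adjusted p = 0.746) and Hp by 0.23 (adjusted p = 0.321). Il6, Jak2 and Lepr were not above the limit on enough arrays.

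**Figure D5:**
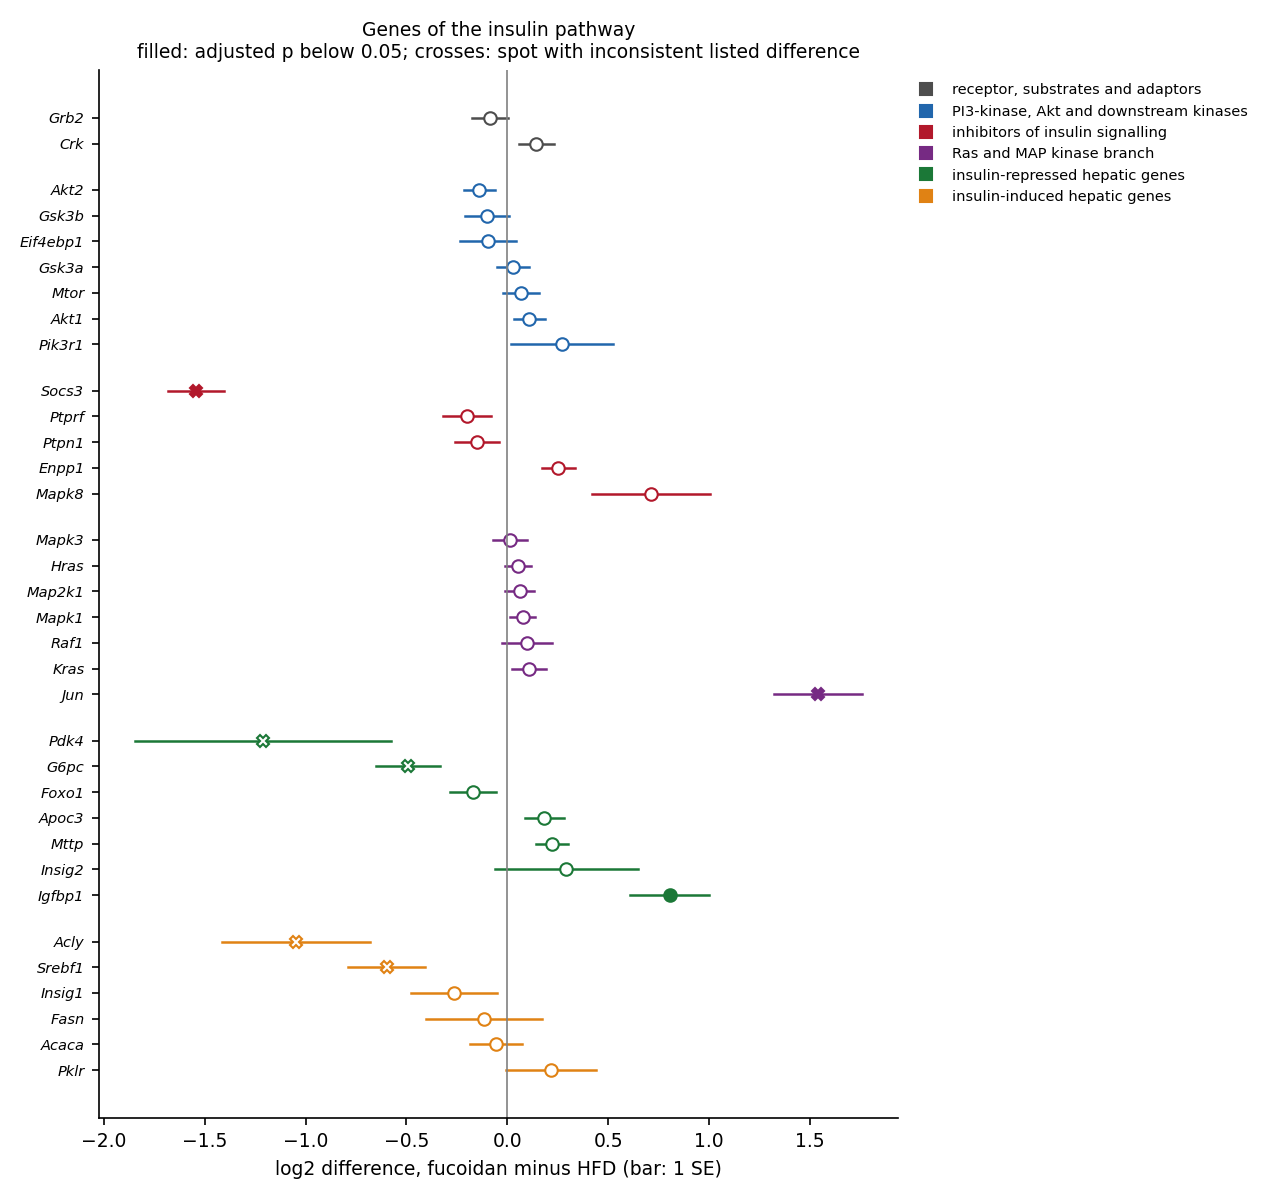
Log2 difference of fucoidan minus HFD (bar: 1 SE) for genes tested in 6 insulin pathway lists, with filled symbols past the threshold and crosses for spots of inconsistent listed difference. Socs3, Jun and Igfbp1 are the 3 filled genes, at −1.54, 1.54 and 0.80.

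Median array foreground was 168 to 232 units, and the detection limit was 121 to 143. The hepatocyte genes Apoa1 and Apoa2 stood at log2 levels of 15.12 to 16.15 and 12.80 to 13.37 and the transcription factor gene Hnf4a, on a spot of inconsistent difference, at 6.93 to 10.03, while Adipoq, Lep, Retn, Plin1, Lipe, Ins2, Gcg, Fabp3, Ucp3 and Tnf were not above the limit on enough arrays. Of the tested markers of other cell types, 2 of 8 for adipocytes, 2 of 3 for leukocytes, 1 of 4 for pancreas and gut and 1 for endothelium, Cfd was the 1 past the threshold, at −0.60 (limma adjusted p = 0.00603) on a spot of inconsistent difference. Summed over the 2 adipocyte markers, the level was 4494 to 5075 in HFD mice and 2309 to 3920 in fucoidan mice. Over the 2 leukocyte markers it was 1547 to 20035 and 1636 to 2339, where the highest value is a single Ccl2 reading in HFD replicate 5. Ccl2 and the endothelial marker Nos3 were also on spots of inconsistent difference. Cfd makes up most of the adipocyte sum, and Fabp4 stood at 8.72 ± 0.47 against 8.75 ± 0.64, a difference of 0.03 (adjusted p = 0.936). Of the 4 hepatocyte genes tested 1 passed, Cyp7a1, which starts the making of bile acids from cholesterol, at −2.51 (limma adjusted p = 0.00162), also on such a spot. With all gene spots kept, all 8 reference genes were higher with fucoidan, with a median of 0.19 beside 0.05 over all genes tested. The 1 that passed was Gapdh, at 0.41 (limma adjusted p = 0.0317), on a spot that shares its background with another. Without the spots of inconsistent difference Gapdh was at 0.07 (limma adjusted p = 0.653). Actb, Rplp0 and Eef1a1 were then lower with fucoidan, at −0.19, −0.04 and −0.03, and the other reference genes stayed higher. The part of the markers in the Socs3 and Igfbp1 differences was not tested. The labels name the mice but not their cages or litters. The limma p-values weigh a group difference against the variation between mice of a group, each read on 1 array. They do not separate the groups from slide position.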

How the data were processed

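Liver RNA of 12 mice was read on 1 slide, and groups came from the sample labels. Per the file headers, the slide was quantified with GenePix Pro on a GenePix scanner, and the deposited table holds linear intensity, with a foreground, a local background and a listed difference for each spot and no scaling between arrays. The authors' deposited series value table, also intensity, has 354 unnamed rows and served only for an alternative count. Its making is not described in the labels or headers. Background was corrected by normexp with an offset of 50 (limma 3.58.1, R 4.3.3), followed by quantile normalisation of the 354 gene spots and log2. Genes whose foreground exceeded the mean plus 2 SD of 41 control and empty spots on at least 6 of 12 arrays were tested, 181 in all, by lmFit and eBayes with Benjamini-Hochberg adjustment at 0.05. The offset draws differences of dim genes towards 0, and that of Enpp1 was 0.25 with an offset of 50 and 0.32 with 16. With no normalisation between arrays it was 0.26. Correlations used exact permutation of pairings (Python 3.11.15, scipy 1.17.1). Steps were tested on simulated data.

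The members, the lists and the rule for named genes were chosen with earlier results of these data known. The rule takes the members, genes past the threshold in each list and up to 3 others per list by smallest p. It also takes the 3 genes of highest correlation with each member. Foxo1, Apoc3, Insig2, Mif, Actb and the cell type markers were named after their values were seen. A few genes are not reported here but were kept in all counts. Alternatives changed the background correction, scaling, dim-gene filter, spots kept, prior and weights, and used a permutation test, a block by replicate number, the value table, or 1 mouse fewer. Array probe sequences were not used here.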

Additional observations from a re-analysis of the deposited data

Results flagged for a closer look

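In 10 groups of 6 mice, 1 for each member and diet, the distance from the most extreme mouse to its neighbour was compared with the group's range. It was past the 95% critical value of Dixon's test in 2, and chance flags about 1 in 20 groups. Igfbp1 in fucoidan replicate 2 was the lowest of its group, with a gap of 0.894 of the range. Its foreground was 2479, against 4924 to 7706 in the other 5 mice. Pik3r1 in HFD replicate 6 was the highest of its group, with a gap of 0.823 of the range and a foreground of 840, against 342 to 494 in the other 5. Without fucoidan replicate 2 the centred r of Igfbp1 with Pik3r1 was −0.48, without HFD replicate 6 it was −0.88, and with all 12 mice −0.83.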

How the results depend on the processing

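The Socs3 difference kept its direction and passed under 12 of 12 alternatives, from −1.66 to −1.45, and with each mouse left out, from −1.62 to −1.47. The Igfbp1 difference kept its direction throughout but did not pass with no normalisation (0.72, adjusted p = 0.0942), median scaling (0.72), reference gene scaling (0.51), spots of inconsistent difference left out (0.59), the exact permutation test (0.80) or the replicate block (0.80, limma adjusted p = 0.0529). With each mouse left out it was 0.76 to 0.98 and passed in 6 of 12 fits. Enpp1 passed on listed differences (0.39) and ran from 0.22 to 0.29 with mice left out. Pik3r1 and Gsk3b did not pass under any alternative, at 0.17 to 0.39 and −0.22 to −0.01, and with mice left out ran from 0.06 to 0.41 and −0.18 to −0.05. The count of 15 genes became 25 on listed differences, 0 without the spots of inconsistent difference (147 genes, 15 at an unadjusted p under 0.05 in limma), 0 without those of shared background too (140 genes), 9 with the replicate block, 40 in the value table, and 9 to 17 with mice left out, lowest without HFD replicate 3 and HFD replicate 5. Of the called genes 7 of 15 were higher, against 2 of 12 with no normalisation, 2 of 12 with reference gene scaling and 5 of 15 with median scaling. The replicate block is a fit by number only, since 2 of 6 same-numbered pairs correlated over 0.1 (−0.24 to 0.18) and 1 of 6 correlated best with its own number, and it changed no other member's call.

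The centred r of Igfbp1 with mice left out was −0.88 to −0.48 for Pik3r1, −0.86 to −0.37 for Gsk3b, −0.25 to 0.51 for Enpp1 and −0.079 to 0.26 for Socs3. Without HFD replicate 1 the relations with Pik3r1 and Gsk3b passed (exact permutation, adjusted p = 0.0333 each). Enpp1 passed with median scaling (0.77, adjusted p = 0.00706). Socs3 turned to −0.00097 on listed differences and −0.20 with no normalisation. The cause of these shifts was not tested. Socs3 has no value without the spots of inconsistent difference, Igfbp1 none without those of shared background, and Enpp1 none with only genes above the limit on all 12 arrays. Brightness limits Enpp1 most, at 0.976 to 1.61 times the detection limit.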

Other observations

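The deposited table also carries summary lines of mean background for each array, and listed minus recomputed mean ran from −0.55 to 0.54 units in one spot set and from −1.20 to −0.37 in the other, over 0.01 in size on 12 of 12 arrays of each. Fucoidan replicate 2, which had the lowest Igfbp1, also had the highest level of the 12 mice for Actb (12.79), the cytoskeletal reference gene. HFD replicate 6, with the second-lowest Igfbp1, had the lowest Igfbp2 level of the 12 mice (8.73).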
